A study of Drosophila melanogaster with 3 samples.

Results

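The 6 genes of the *Drosophila* lysosomal alpha-mannosidase family, LManI to LManVI, were followed across 3 single-cell libraries of the developing intestine. They were taken as the rows whose symbol is one of these names, 6 of 17738 gene rows in each library, and every one of them was found once. The samples were intestines of flies labelled female and CantonS(per01 background), dissected at ZT0 (lights on): red-eye pupae, adults of day 1 (immature adults) and adults of day 7-8 (adults). The study's text names the strain as CantonS alone, and its methods call the day 1 library pharate, a stage before eclosion, so that the exact stage of the library called immature adult here is not certain. Each stage was 1 library of the 10x Genomics 3′ kit, with no second library of any stage, so differences between stages are also differences between libraries, no test was possible, and all intervals below are exact 95% intervals that cover counting error only. In the pupal library, labelled female like the others, 15.5% of kept cells had a unique molecular identifier (UMI, a count of 1 captured transcript) of roX1 or roX2, RNAs of male dosage compensation. That share was 1.09% in the immature adult and 1.31% in the adult library. The results were recomputed without these pupal cells. Barcodes shared between libraries numbered 1 between the immature adult and the pupa, 2 between the adult and the pupa and 0 between the adult and the immature adult, among kept cells.

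Lysosomal alpha-mannosidases are glycoside hydrolases of the lysosome. They remove terminal alpha-linked mannose from the sugar chains of glycoproteins that are being broken down, and loss of the human enzyme MAN2B1 causes the storage disease alpha-mannosidosis. The fly midgut is an epithelium of absorptive and enzyme-secreting enterocytes (ECs), hormone-secreting enteroendocrine cells (EEs) and progenitors (stem cells and enteroblasts), wrapped in visceral muscle (VM).

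All 6 genes lie on chromosome 2L, in 2 places. LManIII (FBgn0032066, 8765273 to 8768710), LManIV (FBgn0032067, 8769159 to 8772344), LManV (FBgn0032068, 8772946 to 8776263) and LManVI (FBgn0032069, 8777661 to 8781252) form a tandem array on the minus strand of BDGP6, with 448, 601 and 1397 bases between neighbours and 5 exons in each gene. LManI (FBgn0032253, 10452677 to 10457241, minus strand) and LManII (FBgn0027611, 10457658 to 10462472, plus strand) stand head to head, with 416 bases between their starts. The annotated proteins have 950 residues for LManI, 1080 for LManII, 1003 for LManIII, 978 for LManIV, 982 for LManV and 1007 for LManVI. The kit reads the 3′ ends of transcripts, and the annotated 3′ UTR was 16 bases long for LManIV and between 33 and 145 bases for the others. How reads were shared among similar members was not analysed here.

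Barcodes were kept with a mitochondrial share under 25%, more than 200 and fewer than 4000 genes, and more than 1000 and fewer than 100000 UMIs. The pupal library kept 2013 cells with a median depth of 9343 UMIs, that of the immature adult 1197 cells with 14661 UMIs, and that of the adult 1980 cells with 13474 UMIs. Cells were gated by which of 5 marker lists led in them (27 EC, 19 EE, 19 progenitor and 13 VM genes, and 13 genes of PupCs, cells that the study describes in the pupa), and no LMan gene was among the markers. A gate is a range of a score, not a cell type. The EC gate held 410 pupal, 208 immature adult and 1269 adult cells. Near its edge lay 243 pupal, 141 immature adult and 353 adult cells. The summed EC markers had a median of 17749, 33690 and 153680 CPM (a gene's UMIs scaled to 1000000 UMIs in all) in EC-gated cells, from the pupal to the adult library, against 415, 399 and 2327 CPM in progenitor-gated cells. In the same EC-gated cells the progenitor markers had medians of 160, 146 and 169 CPM, the EE markers 26.2, 176 and 441 CPM, the PupC markers 2886, 7280 and 6475 CPM, and the VM markers 33.4, 0 and 0 CPM.

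All 6 members together had a higher level in EC-gated cells than in other kept cells at every stage, and the makeup of the family differed from library to library. In the pupa, the head-to-head pair was the main signal. LManI had 93 UMIs over the EC-gated cells, 10.8 CPM (8.75 to 13.3), and LManII had 96 UMIs, 11.2 CPM (9.06 to 13.7), so the intervals of the pair overlap. Of the array, LManV had 28 UMIs (3.26 CPM, 2.17 to 4.72), LManIII had 2, LManIV had 1 and LManVI had none. A count of 0 allows up to 0.350 CPM of LManVI in these cells, and no UMI of it was found in any of the 2013 kept pupal cells.

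LManVI led the family in the immature adult. Its level in EC-gated cells was 257 CPM (237 to 278), which made up 55.2% of all LMan UMIs there. LManI followed with 79.9 CPM (69.0 to 92.1) and LManV with 67.5 CPM (57.5 to 78.7), and these intervals overlap. Without the 1 cell with the most UMIs of the gene, LManVI had 201 CPM, LManI 77.5 CPM and LManV 49.2 CPM. LManII had 31.2 CPM (24.6 to 39.1) and LManIII 29.6 CPM (23.1 to 37.3), also overlapping. LManIV stood last with 2 UMIs, 0.833 CPM.

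In the adult the array genes LManV and LManVI were close to each other and highest. LManV had 293 CPM (288 to 299) and LManVI 285 CPM (280 to 291) in EC-gated cells, with overlapping intervals. LManII had 163 CPM (159 to 167), LManIII 141 CPM (137 to 145), LManI 26.96 CPM (25.3 to 28.7) and LManIV 8.89 CPM (7.96 to 9.90), and no interval of these touches another. The kit counts 1 end per molecule, so these levels were not divided by length. Divided by the coding length, the levels had the same order, with 99.5 CPM per kb for LManV, 94.4 for LManVI, 50.3 for LManII, 46.8 for LManIII, 9.46 for LManI and 3.03 for LManIV. All 6 together summed to 25.6 CPM in the pupa, 466 CPM in the immature adult and 918 CPM in the adult. Cells that no gate took had 11.7 CPM in the pupa, 215 CPM in the immature adult and 195 CPM in the adult. In the immature adult 1120 of the 2385 LMan UMIs of kept cells were in EC-gated cells, 672 in ungated cells and 593 in the other gated cells.

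**Figure D1:**
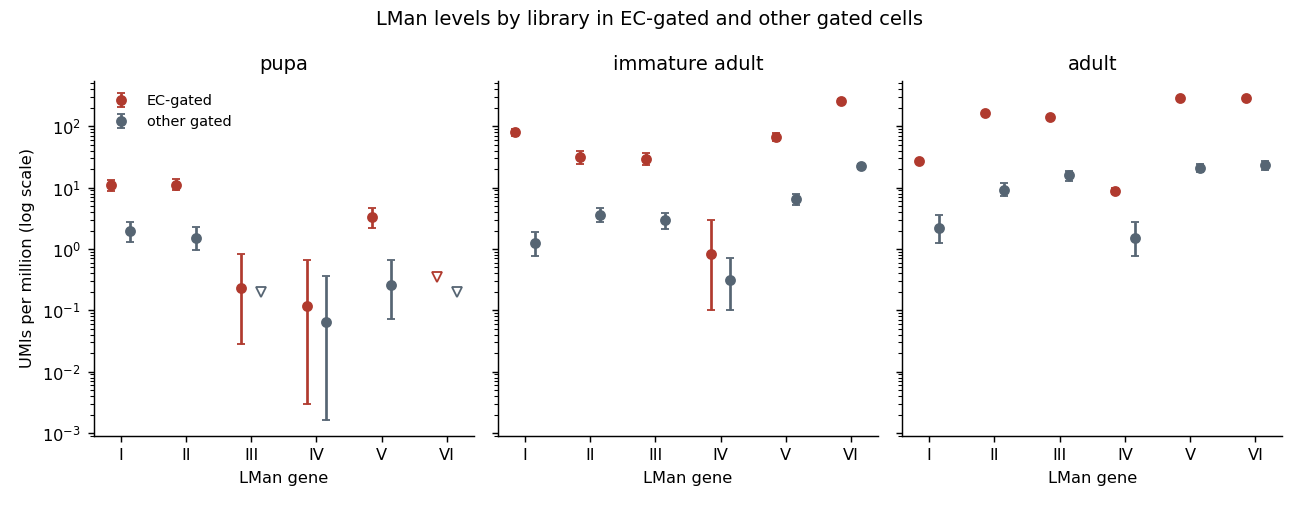
Level of each LMan gene (x axis) in CPM on a log axis, in EC-gated cells (red) and in all other gated cells (grey) of each library, with exact 95% Poisson intervals. Open triangles mark a count of 0 and stand at the limit it allows. EC-gated points lie above the others wherever the intervals do not overlap, and LManVI has no point in the pupa but 257 CPM in the EC-gated cells of the immature adult.

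The first comparison was between gated classes within a library. In the pupa LManI reached 10.8 CPM in EC-gated cells, against 1.95 CPM in the other gated cells, and LManII 11.2 CPM, against 1.497 CPM. A gene was called when it differed by 2-fold or more and had at least 100 UMIs in both groups together. Both pupal members with enough UMIs were called higher in EC-gated cells, where 17.1% of all genes tested were. Their log2 ratios were 2.47 (1.86 to 3.12) for LManI and 2.90 (2.23 to 3.63) for LManII. With a mitochondrial share under 10%, or without the deepest 5% of cells, neither reached 100 UMIs and 0 were called. LManV had 28 UMIs in the EC gate, against 4 outside it, too few for a call.

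In the immature adult 5 of 5 members tested were called higher in EC-gated cells, against 18% of genes. LManI had the steepest ratio, with 79.9 CPM in EC-gated cells, against 1.24 CPM in the other gated cells (log2 ratio 6.01, 5.34 to 6.75). The ratios of the other 4 were 3.12 for LManII, 3.34 for LManIII, 3.38 for LManV and 3.53 for LManVI. None of their intervals reaches that of LManI. The other gated cells pool classes of unequal depth, and progenitor-gated cells held 11915773 of their 16096443 UMIs. LManII had 31.2 CPM (24.6 to 39.1) in EC-gated cells, against 1.68 CPM in progenitor-gated, 8.05 CPM in EE-gated and 26.1 CPM (7 UMIs, 10.5 to 53.8) in the 65 PupC-gated cells, where the interval overlaps that of EC-gated cells. LManVI had 257 CPM in EC-gated cells, against 14.2 CPM in progenitor-gated, 41.5 CPM in EE-gated and 85.9 CPM (54.4 to 129) in PupC-gated cells.

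In the adult 6 of 6 were called higher in EC-gated cells, against 12.1% of genes. The log2 ratios were 3.60 for LManI, 4.13 for LManII, 3.16 for LManIII, 2.54 for LManIV, 3.80 for LManV and 3.62 for LManVI. Over all genes tested the median log2 ratio was -1.55. LManV, for example, had 293 CPM in EC-gated cells, against 33.4 CPM in EE-gated, 18.5 CPM in progenitor-gated and 12.7 CPM (2 UMIs) in the 4 PupC-gated cells. VM-gated cells numbered 5, with 6 LMan UMIs in all.

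The makeup of the LMan UMIs was set side by side inside and outside the EC gate of the adult. In EC-gated cells LManVI made up 31.1% of the LMan UMIs, LManV 31.9%, LManIII 15.3%, LManII 17.7%, LManI 2.94% and LManIV 0.968%. In progenitor-gated cells of the adult, LManVI made up 32.6% of the LMan UMIs, LManV 28.6%, LManIII 20.8%, LManII 13.2%, LManI 4.04% and LManIV 0.809%. In EE-gated cells, on 146 LMan UMIs, LManVI made up 30.8%, LManV 30.1%, LManIII 21.9%, LManII 11.0%, LManIV 5.48% and LManI 0.685%. Barcodes with 1000 UMIs or fewer, below the limit for a cell, had 32.8% LManVI, 31.1% LManV, 18.6% LManIII, 13.1% LManII, 2.22% LManI and 2.14% LManIV. The level of all 6 in those shallow barcodes was 2107 CPM, above the 918 CPM of EC-gated cells and the 64.7 CPM of progenitor-gated cells. In the immature adult the shallow barcodes had 1129 CPM, against 466 CPM in EC-gated cells. In the pupa they had 20.8 CPM (11 UMIs), against 25.6 CPM. RNA released from broken cells could reach any droplet. Its part in the levels inside and outside the EC gate, and in the ratios between them, was not tested. LManI of the immature adult was 17.1% of LMan UMIs in EC-gated cells, against 3.76% in progenitor-gated cells and 5.56% in shallow barcodes. It was 4.73% in the barcodes above 1000 UMIs that the filter removed, which held 91.5% of the LMan UMIs of that library.

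Between the pupa and the immature adult, 4 of 4 members with enough UMIs were called higher in EC-gated cells of the immature adult, against 21.2% of genes tested. LManVI was at least 736-fold higher, computed against 3 UMIs over the pupal EC-gated cells, and the exact interval of its log2 ratio starts at 9.22. LManV was higher by a log2 ratio of 4.37 (3.78 to 5.0), LManI by 2.88 (2.52 to 3.26) and LManII by 1.48 (1.03 to 1.93). For LManIII, 71 UMIs stood in the immature adult, against 2 in the pupa, a log2 ratio of 6.99 (5.08 to 10.06) that missed the minimum of 100 UMIs. When the EC gate was built without proteases, amylase and maltases, LManII fell short of 2-fold, with a log2 ratio of 0.91. Without pupal cells that had a roX UMI, the ratios were 4.19 for LManV, 2.82 for LManI and 1.44 for LManII.

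Between the immature adult and the adult, the members parted. LManII was higher in the adult by a log2 ratio of 2.38 (2.05 to 2.73), LManIII by 2.25 (1.91 to 2.61), LManV by 2.12 (1.90 to 2.35) and LManIV by 3.42 (1.55 to 6.47), the last on 333 UMIs in the adult, against 2 in the immature adult. These 4 of 6 were called higher, against 6.64% of genes. LManVI stayed within 2-fold (0.15, 0.03 to 0.27). LManI was called lower, with 26.96 CPM in the adult, against 79.9 CPM in the immature adult (-1.57, -1.79 to -1.34), 1 of 6 where 48% of genes were called lower and the median log2 ratio of all genes tested was -0.97. With the 50 most abundant genes of each library out of the denominator, LManI had -0.76 and was no longer called. With the gate that left out proteases, amylase and maltases, which held 126 adult cells, LManI turned to 1.37 and LManVI had 3.39. Adult over pupa, all 6 were called higher in EC-gated cells, against 13.1% of genes, with log2 ratios of 1.31 for LManI, 3.86 for LManII, 9.24 for LManIII, 6.253 for LManIV and 6.49 for LManV, and at least 816-fold for LManVI, whose interval starts at a log2 ratio of 9.37. The pupal counts of LManIII and LManIV were 2 and 1 UMIs, so that their intervals run from 7.39 to 12.28 and from 3.76 to 11.56. A stricter gate left LManI at 0.36 in that comparison, and LManV at 0.74 for adult over immature adult, both within 2-fold.

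**Figure D2:**
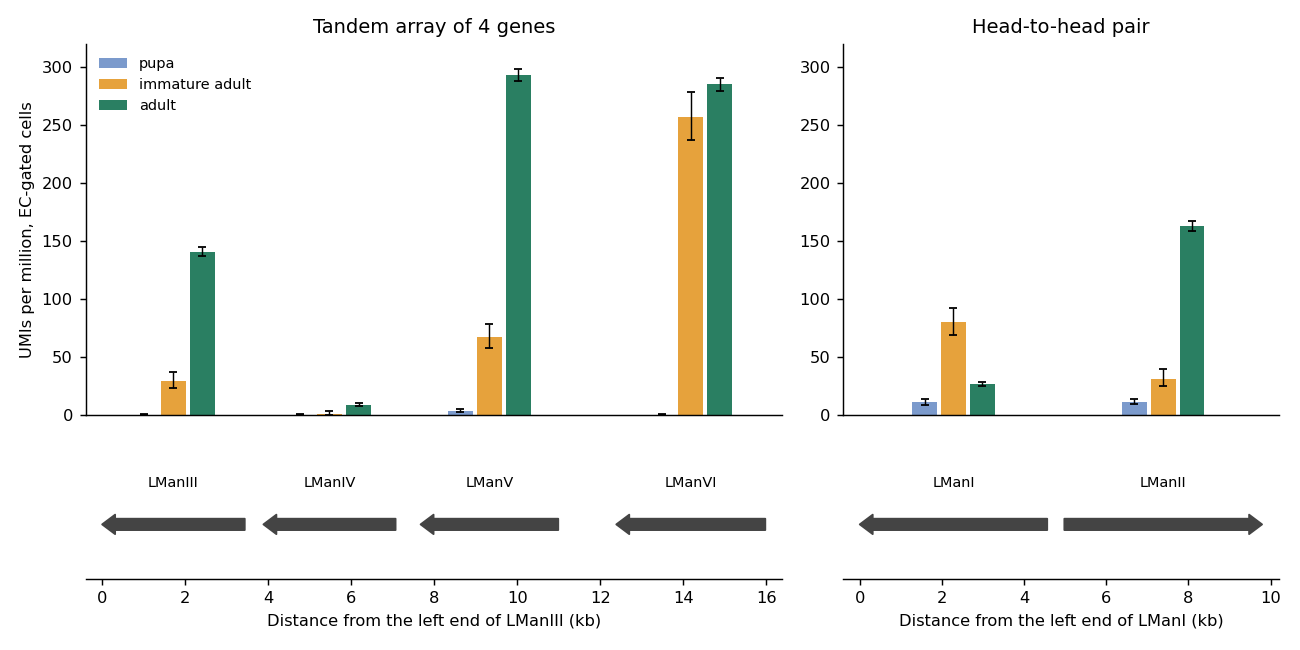
The genes drawn to scale as arrows in the direction of transcription (x axis, distance in kb from the left end of the first gene of each group), with their level in EC-gated cells above them (CPM) for the pupa, the immature adult and the adult; error bars are exact 95% Poisson intervals. LManVI has 257 CPM already in the immature adult, while its neighbour LManV has 67.5 CPM there and 293 CPM in the adult. In these kept cells LManI alone has its highest level in the immature adult. With no upper limit on genes and UMIs, LManVI also had a higher level there than in the adult.

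The genes next to the family were also counted in EC-gated cells. CG12438, 12063 bases from LManIII, and CG42710, 546 bases from LManVI, had 0 UMIs in every library. Next to LManI, ppk10, of a family of sodium channels, had 1 pupal, 0 immature adult and 14 adult UMIs. RluA-1, next to LManII, had 0.932 CPM in the pupa, 28.3 CPM in the immature adult and 3.07 CPM in the adult. LManII had 11.2, 31.2 and 163 CPM there. RluA-1 was highest in the immature adult, as was LManI (10.8, 79.9 and 26.96 CPM).

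Most LMan UMIs of both adult-stage libraries lay in barcodes that the filter removed. Of 34636 LMan UMIs in the immature adult library, 6.89% were in kept cells and 84.6% were in 206 barcodes with an acceptable mitochondrial share but with 4000 genes or more, or 100000 UMIs or more. The same kind of barcode, 205 of them, held 56.3% of the 99461 LMan UMIs of the adult library, of which kept cells held 35.7%. In the pupa the kept cells held 54.9% of 572 LMan UMIs, beside 54.3% of all UMIs. These deep barcodes held 52.2% of all UMIs in the immature adult and 32.1% in the adult, so the LMan UMIs were more concentrated in them than UMIs at large. Their LMan level was 1090 CPM in the immature adult, where LManVI had 737 CPM and 67.6% of the family, and 2237 CPM in the adult, where LManVI had 799 CPM and LManV 757 CPM. Whether such barcodes were large cells or more than 1 cell was not tested.

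With no upper limit on genes and UMIs, the EC gate held 484 pupal, 261 immature adult and 1334 adult cells, and some calls between stages changed. LManVI then had 1325 CPM in the immature adult and 581 CPM in the adult, and its adult over immature adult log2 ratio was -1.19 in place of 0.15. LManIII had 0.70 in place of 2.25 and was no longer called, while LManI had -1.19 and LManII, LManIV and LManV remained higher in the adult, by 1.14, 2.6 and 1.1. LManVI was still first in the immature adult. In the 206 deep barcodes of that library LManV had 155 CPM, LManIII 77.2 CPM, LManII 68.6 CPM and LManI 51.6 CPM. That order after LManVI differs from the order in kept EC-gated cells, where LManI came second. In the pupa LManVI still had 0 UMIs, also in all 163 deep barcodes.

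**Figure D3:**
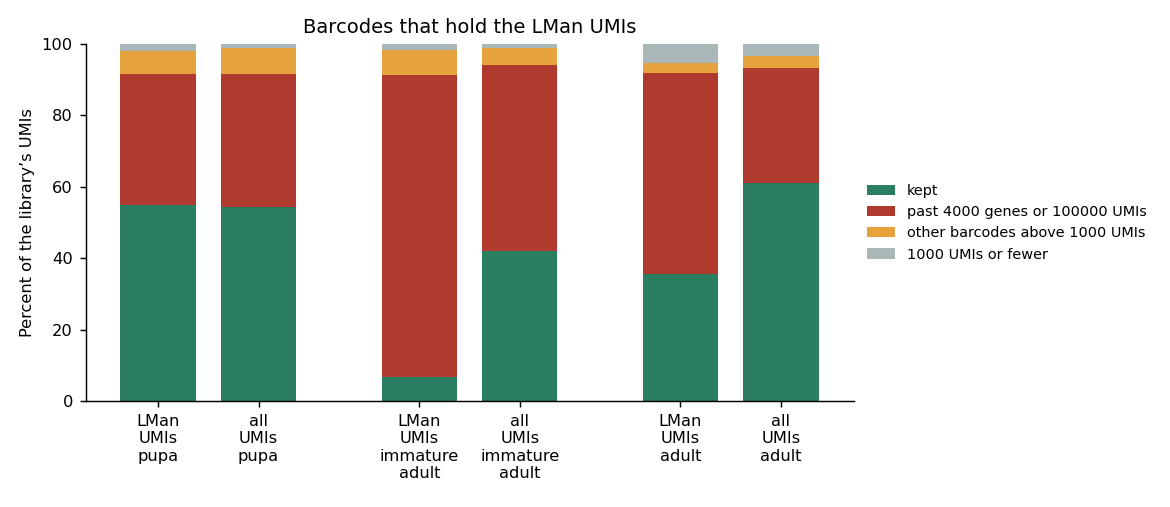
Percent of each library's UMIs (y axis) by kind of barcode, for LMan UMIs and for all UMIs: kept cells, barcodes past 4000 genes or 100000 UMIs, other removed barcodes above 1000 UMIs, and shallow barcodes. In the immature adult, kept cells hold 6.89% of LMan UMIs but 42.0% of all UMIs.

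Within the EC gate the family was unevenly spread over cells. In the adult, 28.4% of EC-gated cells had a UMI of LManI, 48.1% of LManII, 47.6% of LManIII, 12.6% of LManIV, 56.7% of LManV and 59.4% of LManVI, at a median depth of 18265 UMIs. In adult progenitor-gated cells, at a median of 20735 UMIs, the shares were 5.49% for LManI, 16.5% for LManII, 23.5% for LManIII, 1.18% for LManIV, 30.6% for LManV and 36.1% for LManVI. Thinned to 2000 UMIs per cell, which left out 234 of 1269 EC-gated and 6 of 255 progenitor-gated cells, 24.5% (21.9 to 27.3) of EC-gated cells had a UMI of LManVI, against 4.82% (2.51 to 8.27) of progenitor-gated cells.

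LManVI was detected in 45.7% and LManI in 40.9% of EC-gated cells of the immature adult, at a median of 6303 UMIs, and LManII in 19.2%, LManV in 10.6%, LManIII in 9.62% and LManIV in 0.962%. In progenitor-gated cells of that library, at a median of 28823 UMIs, 31.1% had a UMI of LManVI and 2.45% of LManI. Thinned, LManVI was found in 21.6% of EC-gated cells, against 3.27% of progenitor-gated cells, and LManI in 14.6%, against 0 of 397 progenitor-gated cells, with an exact upper limit of 0.925%. In the pupa 7.80% of EC-gated cells had LManI and 6.83% had LManII, against 1.86% and 0.265% of progenitor-gated cells.

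A small set of cells held much of the signal. The 10% of EC-gated cells with the most UMIs of a gene held between 65.9% (LManII) and 90.1% (LManIV) of its UMIs in the adult. These were 127 cells, and LManIV was found in 160 cells in all, so its share was bound to be high. Cells were ranked by UMIs and not by level, and depth differed between them. In the adult 1 cell had 2165 LMan UMIs, and the highest counts in a cell were 843 for LManV and 758 for LManVI. Of the 1120 LMan UMIs in the EC gate of the immature adult 1 cell held 203, and of the 618 of LManVI 1 cell held 139, without which LManVI had 201 CPM. The 21 cells that are the top 10% in that library held 53.6% of the UMIs of LManI, 74.7% of those of LManII and 86.1% of those of LManVI. LManIII was found in 20 cells and LManV in 22, too few for such a share.

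Members were found together. Of the 1269 adult EC-gated cells, 198 had none of the 6, 303 had 1, 239 had 2, 98 had 3, 125 had 4, 202 had 5 and 104 had all 6. When at least 2 UMIs were asked of a member, 598 cells had none, 193 had 1, 57 had 2, 64 had 3, 178 had 4, 136 had 5 and 43 had 6. Under the stricter rule fewer cells thus had 2 or 3 members than had 1, 4 or 5. Cells differed in depth. The counts at equal depth asked for 1 UMI only, and at 918 CPM a cell of 2000 UMIs holds few LMan UMIs. They therefore cannot show whether a low middle remains. Thinned to 2000 UMIs, 518 cells had none with a UMI, 272 had 1, 148 had 2, 55 had 3, 23 had 4, 10 had 5 and 9 had 6. At least 4 members with a UMI were seen in 0.488% (0.0591 to 1.75) of pupal, 4.33% (2.0 to 8.05) of immature adult and 34.0% (31.4 to 36.6) of adult EC-gated cells. Thinned to 2000 UMIs, these shares were 0 of 395 pupal cells (which allows up to 0.930%), 2.16% (0.592 to 5.44) of immature adult cells and 4.06% (2.94 to 5.45) of adult cells. At equal depth the intervals of both adult libraries thus overlap. Few cells can show 4 members at 2000 UMIs, so the overlap does not show that the shares were alike.

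**Figure D4:**
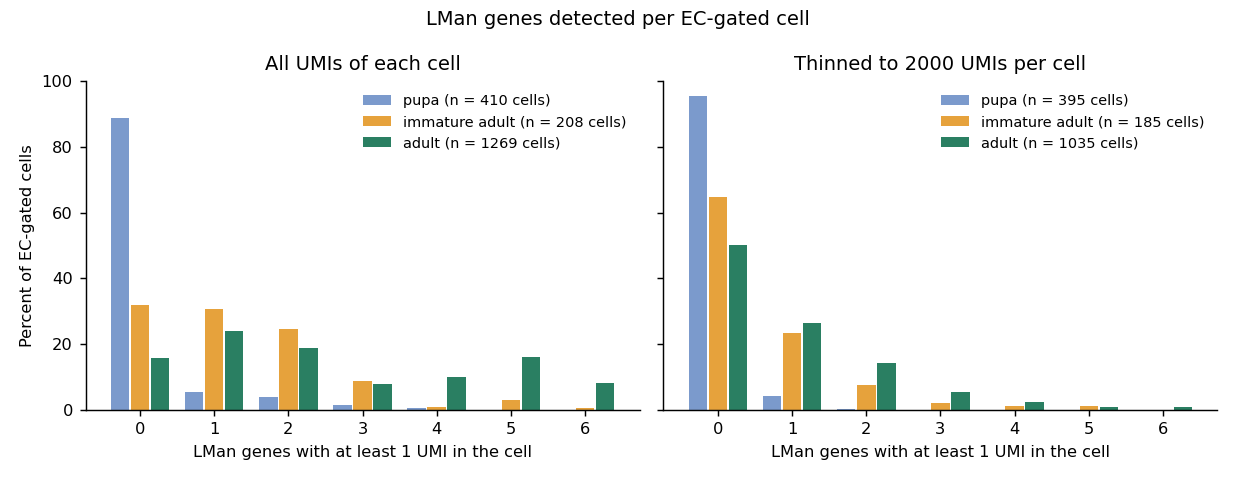
Percent of EC-gated cells (y axis) by the number of LMan genes with at least 1 UMI (x axis) in the pupa, the immature adult and the adult, with all UMIs of each cell (left) and after thinning to 2000 UMIs (right). The tail of adult cells with 4 to 6 genes is 34.0% of cells with all UMIs and 4.06% after thinning.

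The 357 adult EC-gated cells with at least 2 UMIs of 4 or more members were 28.1% of the gate and held 91.1% of its LMan UMIs. They were also deep, with a median of 66553 UMIs and 56.0% of all UMIs of the gate, against a median of 4485 UMIs in the 598 cells with no member at 2 UMIs. Depth raises the number of members found, and the split uses the members, so the difference in their levels is a description. In these 357 cells LManV had 480 CPM, LManVI 471 CPM, LManII 262 CPM, LManIII 223 CPM, LManI 41.7 CPM and LManIV 14.2 CPM. Of the immature adult, 7 of 208 EC-gated cells met the same rule and held 62.7% of the gate's LMan UMIs with 3.83% of all its UMIs, at a median of 13301 UMIs. LManVI had 4949 CPM in these 7 cells, LManV 1545 CPM and LManIII 587 CPM. The 136 cells with no member at 2 UMIs had 35.3 CPM of LManVI and 24.2 CPM of LManI.

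Pairs of members went together within the adult EC gate. Among cells with LManI, 90.3% had LManII, against 31.3% of cells without LManI. Among cells with LManV, 75.8% had LManVI, against 37.9% of cells without LManV, and 66.8% had LManIII, against 22.4%. LManIV, seen in 160 cells, came with LManIII in 88.1% of them and with LManVI in 90.6%. After thinning, LManVI was found in 44.9% of cells with LManV, against 17.9% of cells without it.

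**Figure D5:**
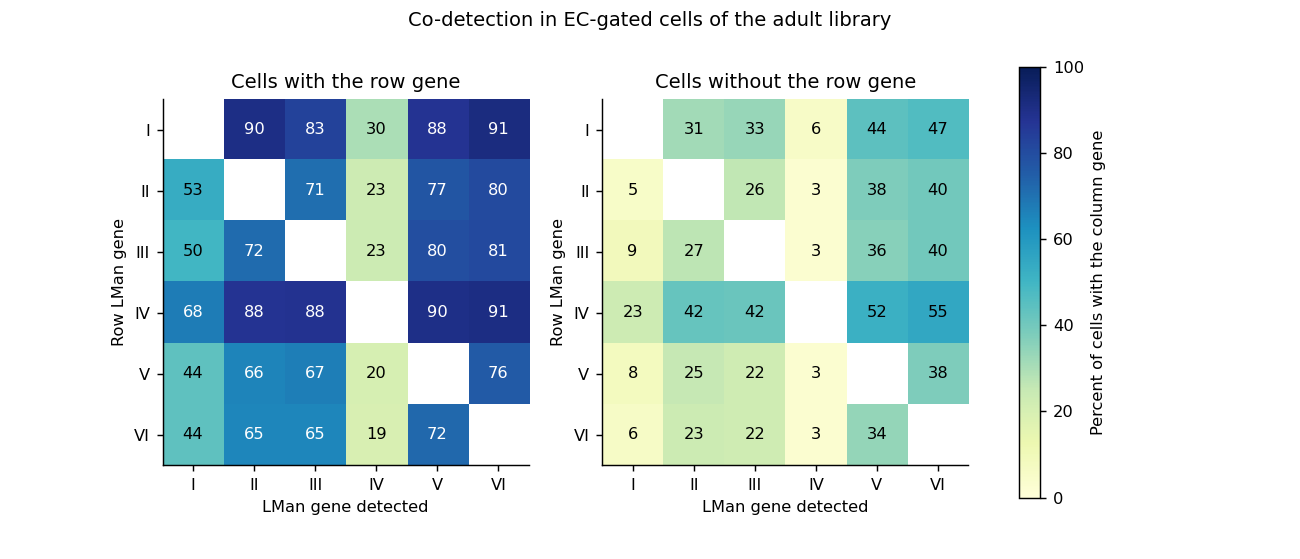
Percent of adult EC-gated cells with at least 1 UMI of the column gene, among cells with the row gene (left) and cells without it (right). Every left-hand value is above its right-hand counterpart, for example 90 against 31 for LManII among cells with and without LManI.

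The correlation of log2(1 + UMIs per 10000) across the 1269 adult EC-gated cells, which share a library and differ in depth, was 0.60 between LManIII and LManV, 0.59 between LManV and LManVI, 0.52 between LManIII and LManVI, 0.51 between LManII and LManVI and 0.47 between LManI and LManII. With the total UMIs of the cell the members correlated between -0.08 (LManIII) and 0.13 (LManII). In the 208 immature adult cells LManIII and LManV correlated at 0.81 and LManV and LManVI at 0.71, on 71 and 162 UMIs of LManIII and LManV. In the pupa, 22 of the 32 EC-gated cells with LManI also had LManII (68.8%, 49.99 to 83.9), against 1.59% of cells without LManI. Cells with members were deeper there, with a median of 32246 UMIs in the 18 cells with 2 or 3 members at 2 UMIs, against 9656 UMIs in the 384 cells with none. Thinned to 2000 UMIs, 0 of 7 pupal cells with LManI had LManII (exact upper limit 41.0%), against 2.06% of cells without LManI, so the pair was not seen together at that depth.

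The genes whose pattern over adult EC-gated cells was most like that of a member were largely shared. For each member the 5 genes with the highest correlation were listed, with the other members apart, among genes detected in at least 10% of these cells. CG15533 and CG15534, for which RefSeq lists acid sphingomyelinase synonyms, stood on the lists of all 6 members. CG15533 correlated at 0.58 with LManVI, 0.50 with LManII, 0.47 with LManI, 0.46 with LManV, 0.43 with LManIII and 0.36 with LManIV. CG12057 was on the lists of LManII, LManIII, LManV and LManVI. CG18585 was listed for LManI, LManII and LManVI, CG33306 for LManIII, LManV and LManVI, and the trypsin gene iotaTry, itself one of the EC markers, for LManIII, LManIV and LManV. CG14629 was listed for LManI and LManII, CDase, a ceramidase gene, for LManI and LManIV, and ninaD, a scavenger receptor of carotenoid uptake, for LManIV. Some of these did not hold in the immature adult: CG33306 had -0.04 with LManV and 0.04 with LManVI there, while CG15533 had 0.53 and 0.48. CG12057 had -0.01 with LManV and 0.07 with LManIII, but 0.16 with LManVI and 0.31 with LManII. With LManIV, on 2 UMIs there, CDase, CG15534, ninaD and iotaTry lay between -0.02 and 0.02, and CG15533 had 0.36.

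Genes of 3 further lists were compared in the same way. Of 11 genes listed as glycosidases of the lysosome, 6 had enough UMIs in the adult. In EC-gated cells 3 of them were higher and 2 lower than in the other gated cells. The median log2 ratio of the 6 was 0.96, beside -1.55 over all genes tested, of which 12.1% were called higher and 62.7% lower. The 3 were Gal, a beta-galactosidase (48.9 CPM in EC-gated cells, against 1.39 CPM), Gba1a, a glucocerebrosidase (12.5 CPM, against 0.831 CPM), and Hexo1, a hexosaminidase (74.2 CPM, against 15.9 CPM). The 2 were Hexo2 (0.347 CPM in EC-gated cells, against 15.5 CPM) and CG1827 (7.69 CPM, against 25.8 CPM). Between the immature adult and the pupa, 2 of 6 genes of that list tested were called higher and 2 lower. Over all genes tested, 21.2% were called higher and 15.3% lower. Gal was higher, with 525 CPM in the immature adult, against 0.117 CPM (1 UMI) in the pupa, and Gba1a had 116 CPM, against 0.932 CPM. CG1827 was lower, with 9.99 CPM in the immature adult, against 52.1 CPM in the pupa, and CG7997 had 27.1 CPM, against 152 CPM. Between the adult and the immature adult, 0 of the 6 genes of that list tested were called higher and 3 lower (Gal, Gba1a and CG7997). Over all genes tested 6.64% were higher and 48% lower, so these counts are near the background.

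Of 12 other lysosomal genes (proteases, membrane proteins and lipid handlers), 11 had enough UMIs in that class comparison of the adult and 0 were higher and 4 lower in EC-gated cells, beside 12.1% higher and 62.7% lower over all genes tested. The 4 were Npc1a (3.07 CPM in EC-gated cells, against 33.7 CPM) and Npc2a (24.9 CPM, against 152 CPM), of sterol transport, the thioesterase gene Ppt1 (3.47 CPM, against 9.83 CPM) and the transcription factor gene Mitf (32.8 CPM, against 109.6 CPM). Of 8 genes that act on N-glycans in the endoplasmic reticulum and Golgi, 4 had enough UMIs and 3 were lower in EC-gated cells, a share near that of all genes tested: alpha-Man-Ia, a mannosidase of the Golgi (1.81 CPM, against 20.4 CPM), Edem1 of glycoprotein degradation (3.92 CPM, against 9.28 CPM) and fdl, a hexosaminidase (1.23 CPM, against 10.1 CPM). Adult over immature adult in EC-gated cells, 1 of 11 other lysosomal genes was higher, the protease gene cathD (157 CPM in the adult, against 65.8 CPM), and 1 was lower, Ppt1 (3.47 CPM, against 15.8 CPM), beside 6.64% higher and 48% lower over all genes tested. Of the 2 N-glycan genes tested there, 0 were higher and Edem1 was lower. Immature adult over pupa in EC-gated cells, 0 of 11 other lysosomal genes tested were higher and 5 were lower. Over all genes tested, 21.2% were higher and 15.3% lower. The 5 were cathD, Cp1, 26-29-p, Ppt1 and DNaseII, and cathD had 179 CPM in the pupa, against 65.8 CPM in the immature adult. Edem2, the 1 N-glycan gene tested in that comparison, was higher (27.9 CPM in the immature adult, against 8.97 CPM).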

How the data were processed

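Intestines of pupae, immature adults and adults were sequenced as 1 single-cell library per stage. The authors aligned reads and counted UMIs with Cell Ranger 3.0.2, and the deposited files hold raw counts of UMIs per gene and barcode, without normalization. Whether intronic reads were counted is not given in the sources used here. Cells were filtered with the limits of the study's methods and levels are summed UMIs scaled to 1000000 (CPM). Sums of kept cells were 27026674 (pupa), 21629263 (immature adult) and 47585248 (adult) UMIs, and a count of 0 was read as up to 3 UMIs. Intervals were Poisson for sums, Clopper-Pearson for shares and conditional on both counts for ratios. The ratio and its interval were tested on simulated data, drawn from the Poisson model that the interval assumes. The simulation held no clumping of UMIs in few cells, so it does not show that the intervals hold for such data. With 1 library per stage there is no p-value.

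Each class score was the mean of standardised log2(1 + UMIs per 10000) over its markers, scaled to unit SD. A cell took the leading class when its score was above 0 and led by at least 0.5, and cells near the edge led by 0.25 to 0.75. This rule was chosen with the values known, and part of the markers come from a table that the study made from these libraries. The members, the marker lists and the 31 genes of 3 pathway lists were chosen with earlier results of these data known. Named genes are the members, genes of the pathway lists that were called in the comparisons described, and the nearest genes by the stated correlation rule; flanking genes were added by position, after values were seen. No doublet caller was used, and cells without a clear lead stayed ungated (362 pupal, 265 immature adult and 341 adult cells). Coordinates are from the BDGP6 annotation. The authors aligned to release 6 of the Drosophila genome, the release of that annotation. Sequences were not used here. Software was matplotlib 3.10.9, pandas 2.3.3, scipy 1.17.1 and numpy 2.4.6 under Python 3.11.15. Alternatives on cells, gates and denominators numbered 6, and 4 more were added after seeing the data.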

Additional observations from a re-analysis of the deposited data

Results flagged for a closer look

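The barcodes above 1000 UMIs that failed the filter on cells carried LMan signal that the comparisons of kept cells do not use; part of them entered the alternatives without upper limits or without a limit on the mitochondrial share. All 6 members together had 11.1 CPM in such barcodes of the pupa, 1080 CPM in those of the immature adult and 2106 CPM in those of the adult, each above the limit that a count of 0 allows. In the pupa this was below the 25.6 CPM of EC-gated cells, and in the immature adult and the adult above the 466 and 918 CPM of EC-gated cells.

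LManI moved in opposite directions in a pair of gated classes between the adult and the immature adult. Its log2 ratio was -1.57 in EC-gated cells and 1.64 in progenitor-gated cells, the second on 15 UMIs in the adult, against 10 in the immature adult. The difference was not tested, since each stage is 1 library, and the progenitor levels lie under those of the shallow barcodes.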

How the results depend on the processing

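No paired analysis was possible because each stage is 1 library. Of the recomputed counts of called members, 5 differed by over 1.5 times from the value reported. The count of members lower in the adult than in the immature adult, 1 in EC-gated cells, was 0 without the 50 most abundant genes in the denominator, 0 with the gate without proteases, amylase and maltases, and 2 with no upper limit on genes and UMIs, an alternative chosen after seeing the data. LManI reversed to 1.37 (log2, adult over immature adult) in the gate without proteases, amylase and maltases, which held 126 adult cells. The count of members higher in EC-gated cells of the pupa, 2, was 0 with a mitochondrial share under 10% and 0 without the deepest 5% of cells, since fewer than 100 UMIs were left. The share of EC-gated cells with at least 4 members was 0 in the pupa after thinning and 0 at 2 UMIs, and in the adult 4.06% after thinning and 28.1% at 2 UMIs. Of the recomputed log2 ratios, 211 stayed inside the counting interval, 102 moved outside it and 1 was counted as reversed. Other ratios also changed sign. LManVI, adult over immature adult, went from 0.15 to -1.19 with no upper limit on genes and UMIs. LManIV, EC-gated over other gated cells of the pupa, went from 0.84, on 1 UMI in each, to as low as -0.73. The ratios of EC-gated over other gated cells of the adult ranged from 2.31 to 5.57 for LManI and from 3.01 to 5.82 for LManVI. With no limit on the mitochondrial share, LManVI had 401 CPM in the immature adult. Depth limits the members with 2 or fewer UMIs in the EC gate: LManIII, LManIV and LManVI in the pupa and LManIV in the immature adult.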

Other observations

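LManIV, the member with the fewest UMIs in the adult, made up 2.14% of the LMan UMIs in shallow barcodes of that library, 0.968% in EC-gated cells, 0.809% in progenitor-gated cells and 1.05% in deep barcodes. In EE-gated cells of the adult it had 8 UMIs, 6.07 CPM (2.62 to 11.97), against 3 UMIs, 0.523 CPM (0.108 to 1.53), in progenitor-gated cells. LManV also had intervals that did not overlap there, 33.4 CPM (24.3 to 44.8) in EE-gated cells, against 18.5 CPM (15.1 to 22.4) in progenitor-gated cells. Both pairs were picked after their values were seen.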
